A study of Mus musculus with 8 samples.

Results

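The tumour necrosis factor (TNF) family of ligands and receptors is described here in mouse naive CD4 T cells and in the Th17 cells grown from them, through 10 genes chosen by name. They are 8 receptors (Tnfrsf4, Tnfrsf9, Tnfrsf18, Tnfrsf8, Tnfrsf1b, Tnfrsf1a, Tnfrsf25 and Fas) and 2 ligands (Tnfsf8 and Tnfsf11), 10 of the 16308 genes in the expression table. Sites of A-to-I RNA editing in Tnfrsf9 were taken from 2 further tables. TNF family ligands are mostly trimeric membrane proteins, often shed from the cell, that cluster receptors carrying cysteine-rich repeats outside the cell. One class of receptor has a death domain inside the cell, which recruits the adaptors FADD or TRADD and can lead to apoptosis or necroptosis. The other class recruits TRAF adaptors and feeds the NF-κB and MAP kinase pathways, and several of its members act as costimulatory receptors that are displayed on T cells after antigen receptor engagement.

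All libraries were made from ribosome-depleted RNA of C57BL/6 mice. The Th17 group (2 libraries) was grown from naive CD4 cells for 72 h on 0.25 µg/mL of anti-CD3ε and 1 µg/mL of anti-CD28, with the cytokines TGF-β (0.1 ng/mL) and IL-6 (20 ng/mL), and the naive group (2 libraries) was untreated CD4 cells. The DDX5-deficient Th17 group (2 libraries) and its wild-type Th17 group (2 libraries) had the same 72 h culture and enter only through the editing table. The growth protocol in the labels has a TGF-β range of 0.1 to 5.0 ng/mL, and the treatment protocol has a second, earlier time beside 72 h. The sample titles call the DDX5-deficient libraries DDX5∆T, without explaining ∆T. How and in which cells Ddx5, an RNA helicase gene, was deleted is not stated beyond that title in the sources used here. Expression of Ddx5 in those libraries was not analysed here. The labels do not say whether replicates came from separate mice or cultures, although the series' design text calls them independent biological replicates. The p-values therefore measure the spread between these libraries, which may be technical. Th17 and naive cells differ in activation, cytokines and time in culture together, and these cannot be told apart.

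Total reads on genes were 26624436 and 11768994 in the Th17 libraries and 20426728 and 16154625 in the naive libraries. Levels are CPM, reads scaled to a common library size, on library sizes scaled by the TMM method. The labels were checked against marker genes. The 4 Th17 markers Il17a, Il17f, Il23r and Ccr6 summed to 3395 and 3161 CPM in Th17 libraries and 0.159 and 0.0704 CPM in naive libraries. The 4 naive markers Ccr7, Klf2, S1pr1 and Il7r summed to 763 and 733 CPM in Th17 libraries and 2375 and 2378 CPM in naive libraries. The 7 T cell markers, Cd3d and Cd4 among them, summed to 2509 and 2152 CPM in Th17 libraries and 4620 and 5341 CPM in naive libraries. Regulatory T cells are known to carry Tnfrsf4, Tnfrsf9 and Tnfrsf18. The 7 regulatory T cell markers summed to 83.0 and 100.2 CPM in Th17 libraries and 89.6 and 54.9 CPM in naive libraries. In Th17 cells 4 were called higher, Itgb8 (log2 fold change 6.90), Lrrc32 (6.50), Nrp1 (2.34) and Ikzf4 (0.85). Another 2 were called lower, Foxp3 (-6.07) and Gpr83 (-2.79), and Ikzf2 was not called. Over all tested genes, 34.3% were called higher and 30.7% lower. Foxp3, the factor that defines that lineage, had 3 and 1 reads in Th17 libraries and 144 and 83 reads in naive libraries. Markers of B cells, myeloid cells and dendritic cells each summed to at most 13.1 CPM in any library, and those of CD8 and natural killer cells to 50.6 and 51.9 CPM in Th17 and 88.7 and 105 CPM in naive libraries. The part of other cells in the results below was not tested. In bulk RNA, fewer cells of a type and less RNA per cell cannot be told apart.

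The edited stretch of Tnfrsf9 carries the one family site present in both editing tables. It lies in the 3′ UTR at chr4:150945389-150945418 on the plus strand, in the mm10 build, read from an annotated transcript (GENCODE M21), and capitals mark the adenosines listed as edited. The only other listed site in a member is in the 3′ UTR of Tnfrsf1b at chr4:145213726-145213755 on the minus strand, from the same annotation.
Tnfrsf9 3′ UTR: cttaacaatatAcatcatAtacatatacac
Tnfrsf1b 3′ UTR: tgcattttatccactAagacatctctccaa

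Promoter windows of 250 bases before to 50 bases after a start were found for all 10 genes in RefSeq (GRCm38.p6), 12 windows in all. They were searched on both strands for an AP-1 motif (TGANTCA), a κB-like motif (GGANNTTCC) and a STAT motif (TTCNNNGAA), the sites of factor families that T cell activation and IL-6 are known to engage. Hits are counted per gene, in any of its windows, whereas the shares of all windows are per window, so they are not like measures. The upstream windows of Tnfrsf9 and Tnfrsf25 held none of the 3 motifs. AP-1 letters were present in windows of 3 of the 10 genes, Tnfrsf8, Tnfrsf9 and Fas, and in 7.81% of all 32851 promoter windows. STAT letters were present in 6 genes (Fas, Tnfrsf18, Tnfrsf1a, Tnfrsf1b, Tnfrsf25 and Tnfrsf9), against 8.3% of all windows. κB-like letters were present in 0 genes, against 4.26%. They cover a strict form of the κB site only. Other forms were not searched, so the 0 does not mean that the windows lack a κB site. The windows with AP-1 letters are printed, and they belong to Tnfrsf8 and Tnfrsf9, called higher in Th17 cells, and to Fas, not called. Tnfrsf4, Tnfsf8 and Tnfsf11, also called higher, held none of the 3 motifs. STAT letters also lay in Tnfrsf1a and Tnfrsf25, called lower. A link of motif letters to expression was not tested. Capitals mark the motif letters, which describe the sequence and are not shown to be bound. The windows are chr4:145315115-145315414 on the minus strand for Tnfrsf8, chr4:150927749-150928048 on the plus strand for the downstream start of Tnfrsf9 and chr19:34290409-34290708 on the plus strand for Fas. The AP-1 letters begin at position -132 from the start in Tnfrsf8, at -15 in Tnfrsf9 and at -211 in Fas.
Tnfrsf8 promoter: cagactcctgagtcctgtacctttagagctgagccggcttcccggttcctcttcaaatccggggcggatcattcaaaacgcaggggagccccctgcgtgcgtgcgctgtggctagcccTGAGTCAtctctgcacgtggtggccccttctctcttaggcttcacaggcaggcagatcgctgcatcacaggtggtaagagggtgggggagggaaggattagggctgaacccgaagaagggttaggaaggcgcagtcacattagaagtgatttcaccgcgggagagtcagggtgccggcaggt
Tnfrsf9 promoter: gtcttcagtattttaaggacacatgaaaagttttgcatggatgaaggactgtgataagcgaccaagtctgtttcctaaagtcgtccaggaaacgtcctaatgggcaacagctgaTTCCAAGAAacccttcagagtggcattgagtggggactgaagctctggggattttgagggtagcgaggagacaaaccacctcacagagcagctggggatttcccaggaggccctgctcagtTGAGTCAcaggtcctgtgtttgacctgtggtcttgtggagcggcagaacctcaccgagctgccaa
Fas promoter: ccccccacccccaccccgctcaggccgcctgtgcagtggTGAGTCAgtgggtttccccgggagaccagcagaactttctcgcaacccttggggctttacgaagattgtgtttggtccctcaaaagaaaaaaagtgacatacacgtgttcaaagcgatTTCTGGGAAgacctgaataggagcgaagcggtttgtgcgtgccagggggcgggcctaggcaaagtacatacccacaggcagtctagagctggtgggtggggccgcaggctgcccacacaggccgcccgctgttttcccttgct

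Of the 8 receptors, Tnfrsf4, Tnfrsf9, Tnfrsf18 and Tnfrsf8 were higher in Th17 cells than in naive cells, as were both ligands, Tnfsf8 and Tnfsf11. Of the 3 death-domain receptors among the 10 genes, Tnfrsf1a and Tnfrsf25 were lower and Fas was not called, and Tnfrsf1b, which has no death domain, was not called either. Of the 10 genes, all passed the filter on low counts, 6 were called higher in Th17 cells (Tnfrsf4, Tnfrsf9, Tnfrsf18, Tnfrsf8, Tnfsf8 and Tnfsf11), 2 were called lower (Tnfrsf1a and Tnfrsf25) and 2 were not called (Fas and Tnfrsf1b), at an adjusted p under 0.05 in edgeR's quasi-likelihood test. Among all 11989 tested genes, 34.3% were called higher, 30.7% were called lower and 65.1% were called either way. Without naive library 1 only 1 member was called lower, Tnfrsf1a, and 2436 of all genes were called higher, or 2380 without naive library 2, against 4116 with all libraries. The members' median log2 fold change (Th17 over naive) was 2.06, and the median over all tested genes was 0.06, with quartiles of -0.73 and 1.16. CPM of the groups did not overlap for 10 of the 10 genes, which was also so for 85.0% of all tested genes. The 10 genes were chosen with earlier results of these data known, so setting them beside all genes is no test.

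**Figure D1:**
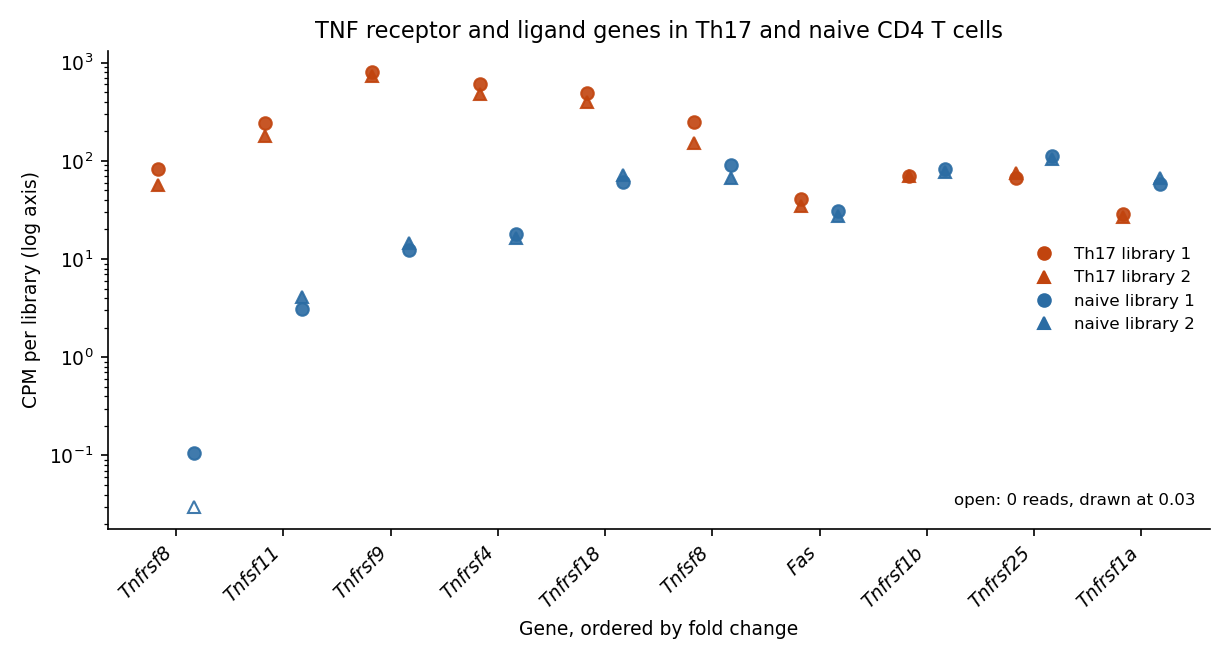
Level of each of the 10 genes in every library, in CPM on a log axis, with Th17 libraries left of naive libraries; each point is 1 library, and the open marker is a library with 0 reads. Tnfrsf4, Tnfrsf9, Tnfsf11 and Tnfrsf8 sit far above their naive points, whereas Tnfrsf1b and Fas lie close together.

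Tnfrsf4 encodes OX40, a costimulatory receptor that binds TRAF adaptors and prolongs survival of activated T cells. It had 612 and 474 CPM in Th17 libraries and 17.9 and 16.3 CPM in naive libraries, from 17651 and 6260 reads and from 337 and 231 reads. Both Th17 libraries were far above both naive libraries, and Th17 library 1 was the higher of its pair. The mean was 543 ± 97.6 CPM in Th17 and 17.1 ± 1.14 CPM in naive cells (SD, n = 2 each), a log2 fold change of 4.99 (SE 0.21) and a fold of 31.8 with a 95% interval of 22.7 to 44.6. The adjusted p of edgeR's quasi-likelihood test was 3e-07. Tnfrsf4 lies on chromosome 4 at 156013843 to 156016612 on the plus strand, 9551 bp from Tnfrsf18.

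Tnfrsf9 encodes 4-1BB (CD137), a costimulatory receptor that binds TRAF adaptors. It had 794 and 732 CPM in Th17 libraries, from 22892 and 9658 reads, and 12.3 and 14.6 CPM in naive libraries, from 232 and 208 reads. The groups were far apart and the libraries within each group close to one another. The mean was 763 ± 44.1 CPM in Th17 and 13.5 ± 1.65 CPM in naive cells (SD, n = 2 each). Its log2 fold change was 5.82 (SE 0.21), a fold of 56.7 with an interval of 40.6 to 79.2, at an adjusted p of 1.6e-07 in edgeR's quasi-likelihood test. Tnfrsf9 lies on chromosome 4 at 150914562 to 150946102 on the plus strand.

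Tnfrsf18 encodes GITR, a costimulatory receptor known on regulatory T cells and on activated helper T cells. It had 494 and 399 CPM in Th17 libraries and 60.7 and 71.3 CPM in naive libraries. Its naive level was the highest of the strongly higher genes, and both Th17 libraries exceeded it. The fitted log2 fold change was 2.76 (SE 0.19), a fold of 6.77, at an adjusted p of 3.8e-06 in edgeR's quasi-likelihood test. It lies on chromosome 4 at 156026164 to 156028895 on the plus strand, and of its exon bases 27.17% are shared with the opposite-strand gene Gm16008, and without a stated use of strand in the counting the reads there cannot be told apart.

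Tnfrsf8 encodes CD30, a receptor without a death domain that appears on activated lymphocytes. It had 2362 and 748 reads in Th17 libraries, equal to 81.9 and 56.7 CPM, and 2 and 0 reads in naive libraries. Both Th17 libraries were far above both naive libraries. With so few naive reads the change is given as a ratio of summed reads scaled for library size, 1223 from 3110 against 2 reads (95% counting interval 338 to 10102). The log2 fold change of 10.02 (SE 0.48) from edgeR's quasi-likelihood fit, at an adjusted p of 4.2e-06, depends on the prior count and is no bound. It was 13.34 without naive library 1, which leaves a naive library with 0 reads. Tnfrsf8 lies on chromosome 4 at 145267137 to 145315164, 20266 bp from Tnfrsf1b, both on the minus strand.

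Tnfrsf1b encodes TNFR2, the TNF receptor that lacks a death domain. It had 69.9 CPM in both Th17 libraries and 82.3 and 77.2 CPM in naive libraries. The groups lay side by side with a small gap. Its log2 fold change was -0.19 (SE 0.15) with a 95% interval of -0.53 to 0.15, and the adjusted p in edgeR's quasi-likelihood test was 0.28. It lies on chromosome 4 at 145213463 to 145246870.

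Tnfrsf1a encodes TNFR1, the main death-domain receptor for TNF. It had 28.7 and 26.8 CPM in Th17 libraries and 58.0 and 67.5 CPM in naive libraries. Both Th17 libraries were below both naive libraries. The fitted log2 fold change was -1.17 (SE 0.16), a fold of 0.443, at an adjusted p of 2e-04 in edgeR's quasi-likelihood test. It lies on chromosome 6 at 125349362 to 125362484 on the plus strand.

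Tnfrsf25 encodes DR3, a death-domain receptor for the ligand TL1A that also costimulates T cells. It had 67.6 and 74.9 CPM in Th17 libraries and 112 and 104 CPM in naive libraries. The Th17 libraries were lower, by a modest margin. Its log2 fold change was -0.60 (SE 0.15), at an adjusted p of 0.0076 in edgeR's quasi-likelihood test, and it was -0.58 with an adjusted p of 0.065 without naive library 1. It lies on chromosome 4 at 152115934 to 152120119 on the plus strand.

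Fas encodes CD95, the death-domain receptor for Fas ligand. It had 40.9 and 34.4 CPM in Th17 libraries and 30.8 and 27.4 CPM in naive libraries. The Th17 libraries were slightly above the naive ones. The fitted log2 fold change was 0.37 (SE 0.16), with a 95% interval of 0.0024 to 0.75, and its adjusted p of 0.071 in edgeR's quasi-likelihood test missed the threshold. The authors' deposited table gave a log2 fold change of 0.40 and an adjusted p of 0.0374 for Fas, so the call there differed. Without Th17 library 2 the log2 fold change was 0.49 at an adjusted p of 0.041 in edgeR's test. Fas lies on chromosome 19 at 34290666 to 34327772 on the plus strand.

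Tnfsf8 encodes CD30 ligand, the partner of Tnfrsf8. It had 251 and 153 CPM in Th17 libraries and 90.2 and 66.3 CPM in naive libraries. Both Th17 libraries were higher, but they differed from one another by a factor of 1.641, the widest ratio among the 10 genes in the Th17 pair. Its log2 fold change was 1.37 (SE 0.29), at an adjusted p of 0.0075 in edgeR's quasi-likelihood test, and the adjusted p was 0.081 without naive library 1 and 0.14 without naive library 2. It lies on chromosome 4 at 63831308 to 63861347 on the minus strand.

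Tnfsf11 encodes RANKL, the ligand known for driving osteoclast formation and for expression on helper T cells, Th17 cells among them. It had 241 and 181 CPM in Th17 libraries and 3.08 and 4.08 CPM in naive libraries, with 58 reads in each naive library. The groups were far apart. The fitted log2 fold change was 5.89 (SE 0.25), a fold of 59.4 with an interval of 40.2 to 87.6, at an adjusted p of 2.8e-07 in edgeR's quasi-likelihood test. It lies on chromosome 14 at 78277445 to 78308043 on the minus strand, whereas 7 of the 10 genes lie on chromosome 4.

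**Figure D2:**
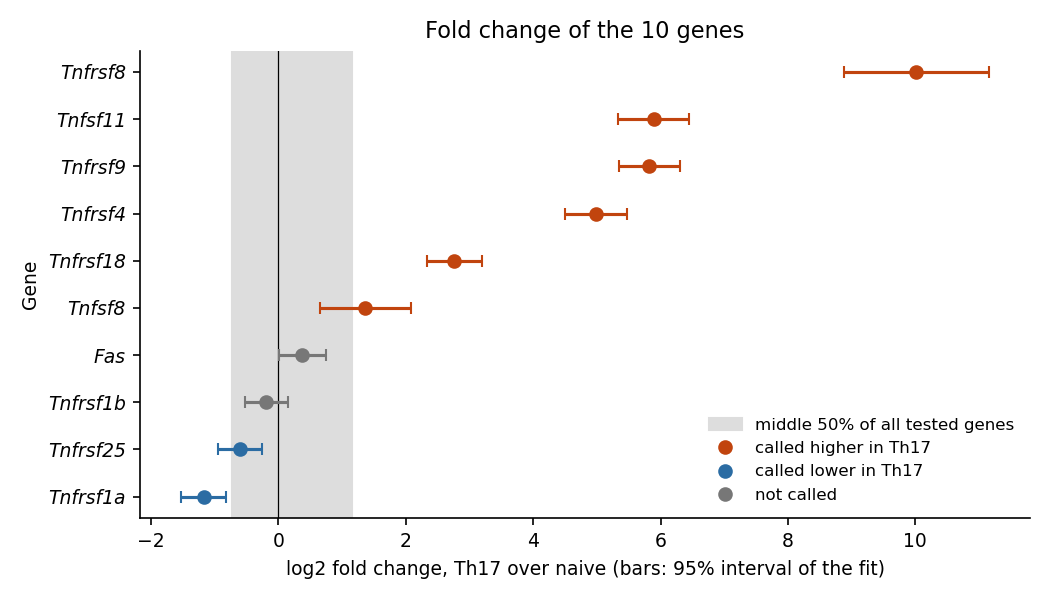
Log2 fold change (Th17 over naive) of the 10 genes with its 95% interval, from the fit across all tested genes. The grey band holds the middle 50% of all tested genes. The interval of Tnfrsf1b spans 0 and that of Fas starts at 0.0024, the 2 genes below 0 by call are Tnfrsf1a and Tnfrsf25, and Tnfrsf8 rests on 2 naive reads.

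Levels of different genes were compared per length, as CPM per kb of merged exon. In Th17 cells the order was Tnfrsf4 (398 ± 71.5 CPM per kb), Tnfrsf18 (293 ± 43.8), Tnfrsf9 (280 ± 16.2), Tnfsf11 (94.3 ± 19.1), Tnfsf8 (53.0 ± 18.2), Tnfrsf25 (31.3 ± 2.29), Tnfrsf8 (20.0 ± 5.16), Tnfrsf1b (18.3), Fas (18.3 ± 2.23) and Tnfrsf1a (10.7 ± 0.5). Tnfrsf18 and Tnfrsf9 did not differ beyond the spread of the libraries, nor did Tnfrsf8, Tnfrsf1b and Fas. Taking the longest transcript as the length kept 7 of the 10 places in Th17 cells, with Fas then above Tnfrsf8 and Tnfrsf1b. In naive cells the order was led by Tnfrsf25 (47.4 ± 2.72 CPM per kb), Tnfrsf18 (43.3 ± 4.92), Tnfrsf1a (24.2 ± 2.58), Tnfrsf1b (20.9 ± 0.95) and Tnfsf8 (20.6 ± 4.43). Fas (14.1 ± 1.16) and Tnfrsf4 (12.5 ± 0.838) followed, and the order ended with Tnfrsf9 (4.95 ± 0.607), Tnfsf11 (1.60 ± 0.318) and Tnfrsf8 (0.0153). Neither Tnfrsf25 and Tnfrsf18 nor Tnfrsf1b and Tnfsf8 differed beyond the spread in naive cells (SD, n = 2 each). Tnfrsf4, Tnfrsf9 and Tnfrsf18 together held 79.39% and 80.3% of the summed per-length level of the 10 genes in Th17 libraries, and 30.11% and 34.01% in naive libraries. The sum over the 10 genes was 1341 and 1094 CPM per kb in Th17 libraries and 191 and 188 CPM per kb in naive libraries.

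**Figure D3:**
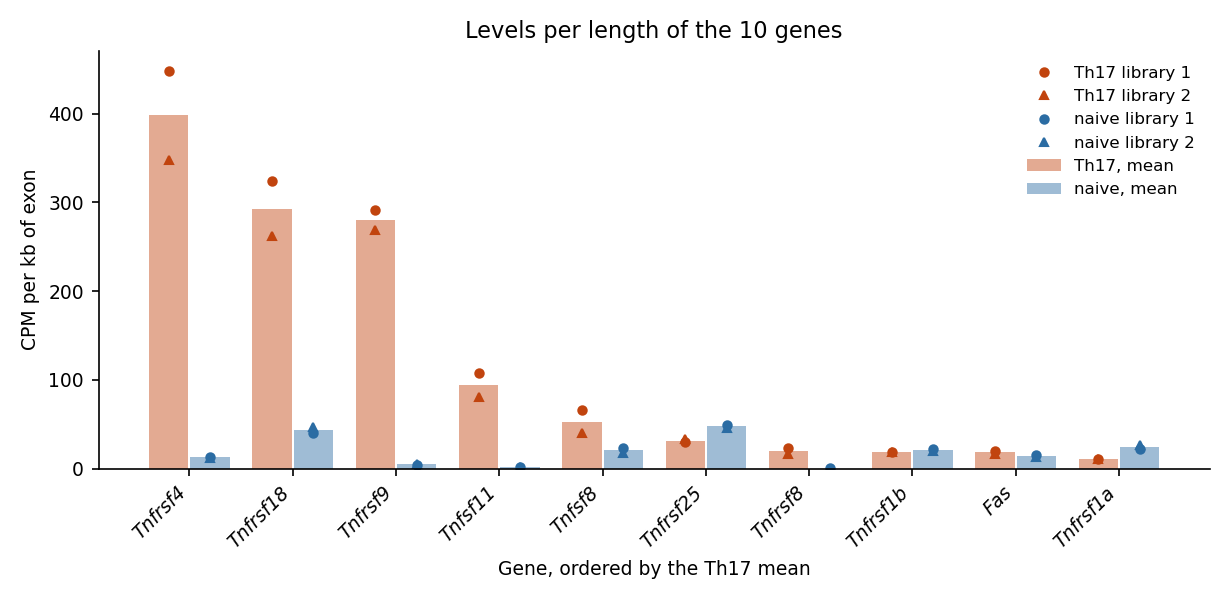
Level of the 10 genes in CPM per kb of exon, ordered by the Th17 mean, with bars for group means, Th17 left of naive, and points for the libraries. Tnfrsf4, Tnfrsf18 and Tnfrsf9 stand above the rest in Th17 cells, whereas in naive cells the highest mean is 47.4 CPM per kb, of Tnfrsf25.

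The ratio of CPM in Th17 library 1 to that in Th17 library 2 was 0.902 for Tnfrsf25 and 1.0 for Tnfrsf1b, and in the other 8 genes it ran from 1.068 for Tnfrsf1a to 1.641 for Tnfsf8. Distance to Tnfrsf9 was taken in mean-centred log2 CPM over the 4 libraries, with a prior count of 2. The closest genes outside the 10 were Socs2 (distance 0.0762), Dlc1 (0.135) and Asph (0.184). The prior count shrinks the changes of genes with few reads, so a small distance is not an equal fold change. Fitted log2 fold changes were 6.44 for Socs2, 7.15 for Dlc1 and 6.00 for Asph, against 5.82 for Tnfrsf9. Socs2 had 16.5 and 16.4 CPM in Th17 libraries and 0.159 and 0.211 CPM in naive libraries. Dlc1 had 9.44 and 9.70 CPM in Th17 libraries and 0.053 and 0.07 CPM in naive libraries, and Asph had 87.8 and 68.0 CPM in Th17 libraries and 1.11 and 1.34 CPM in naive libraries.

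The known partners of these members were read from the same fit, and they were chosen after their values were seen. Tnfsf4, the OX40 ligand, had 49.4 ± 13.4 CPM in Th17 and 0.309 ± 0.0613 CPM in naive cells (SD, n = 2 each), with a log2 fold change of 7.32 (SE 0.33), so both sides of the OX40 pair were called higher. Tnfsf9, the 4-1BB ligand, had 14.1 and 13.3 CPM in Th17 libraries and 0.531 and 1.06 CPM in naive libraries, a log2 fold change of 4.12 (SE 0.40). Tnfsf18, the GITR ligand, had 1 and 1 reads in Th17 libraries and 0 and 0 in naive libraries and was not tested. Tnf, the ligand of TNFR1 and TNFR2, had 52.9 and 43.3 CPM in Th17 libraries and 13.6 and 6.76 CPM in naive libraries, with a log2 fold change of 2.23 (SE 0.36). Lta, lymphotoxin alpha, had a log2 fold change of 2.59 (SE 0.18). Ligands of TNFR1 were thus called higher while the receptor was called lower. Fasl, Fas ligand, had 8.43 and 5.00 CPM in Th17 libraries and 6.53 and 5.77 CPM in naive libraries, and was not called (log2 fold change 0.13, SE 0.35). Tnfsf15, the DR3 ligand, had 12 and 2 reads in Th17 libraries and 0 in naive libraries, and Tnfrsf11a, the receptor of RANKL, had 9 and 10 reads in Th17 libraries and 3 and 3 in naive libraries, both untested.

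Of the other TNF receptors on a list of 20, 18 were measured and 15 tested, with 8 called higher, 5 lower and 2 not called, and a median log2 fold change of 0.72. The background was 34.3% higher and 30.7% lower. Over the other receptors and ligands together, 15 genes were called higher, 8 without naive library 1 and 7 without naive library 2. Cd27, a costimulatory receptor of naive T cells, had 26.5 and 24.9 CPM in Th17 libraries and 314 and 331 CPM in naive libraries, a log2 fold change of -3.65 (SE 0.17). Relt, a TNF receptor family member, had a log2 fold change of -2.70 (SE 0.16), and Tnfrsf14 (HVEM) one of -2.40 (SE 0.19). The genes with the largest rise had few naive reads. Eda2r, the receptor of an ectodysplasin form, had 109 reads in Th17 and 1 read in naive cells, a ratio of 85.7 (95% counting interval 15.1 to 3416). Tnfrsf21 (DR6), a death-domain receptor, had 5.65 and 16.5 CPM in Th17 libraries and 0.424 and 0.422 CPM in naive libraries, with a log2 fold change of 4.68 (SE 0.63). Ltbr, the lymphotoxin beta receptor, had a log2 fold change of 3.73 (SE 0.79). The Th17 libraries were uneven in both genes, and without Th17 library 2 the log2 fold change was 3.72 for Tnfrsf21 and 2.70 for Ltbr. Calls of Tnfrsf21 and Ltbr were lost without either naive library, with adjusted p of 0.073 and 0.074 for Tnfrsf21 and 0.16 and 0.12 for Ltbr, and that of Eda2r was lost without naive library 2, at 0.053, all in edgeR's test. Tnfrsf22 (-1.22, SE 0.17) and Tnfrsf26 (-1.06, SE 0.16) were called lower and Tnfrsf23 (1.82, SE 0.39) higher. They are related genes close together on chromosome 7, and whether reads were misplaced among them was not tested.

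Of the other ligands on a list of 16, 15 were measured and 10 tested. Of those tested, 7 were called higher, 2 lower and 1 not called, with a median log2 fold change of 2.41. Over all tested genes, 34.3% were called higher and 30.7% lower. Ltb, lymphotoxin beta, had 39.0 and 51.5 CPM in Th17 libraries and 592 and 652 CPM in naive libraries, a log2 fold change of -3.78 (SE 0.21). Tnfsf10 (TRAIL), a ligand of death receptors, was also called lower (-1.38, SE 0.17). Cd70, the CD27 ligand, had 204 reads in Th17 and 0 in naive cells, at least 26.4-fold higher when set against 3 reads in each naive library. Tnfsf14 (LIGHT) had a log2 fold change of 5.18 (SE 0.24), from 36.9 and 31.6 CPM in Th17 libraries and 0.955 and 0.915 CPM in naive libraries. The pairs of Cd27 with Cd70 and of Tnfrsf14 with Tnfsf14 thus have the receptor called lower and the ligand called higher.

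**Figure D4:**
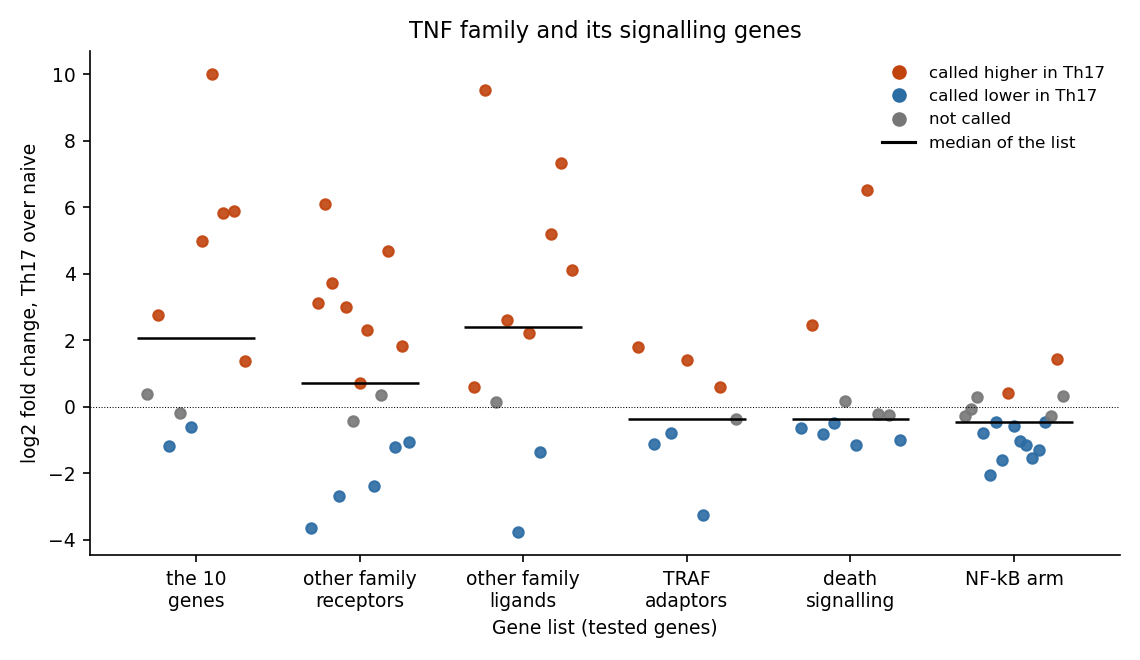
Log2 fold change (Th17 over naive) for every tested gene among the 10 genes, the other receptors, the other ligands and the signalling lists, 1 point a gene, with list medians. The ligand list and the 10 genes have medians above 2, and the TRAF, death and NF-κB lists have medians below 0.

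Signalling genes downstream of these receptors were on 3 lists and a list of shedding proteases, with 36 genes tested, 7 called higher, 18 lower and 11 not called. Without either naive library 4 were called higher. Among 7 TRAF adaptors, 3 were higher, 3 lower and 1 not called. The shares over all 11989 tested genes were 34.3% called higher and 30.7% called lower. Traf1, an adaptor of the costimulatory receptors, had 483 and 439 CPM in Th17 libraries and 121 and 148 CPM in naive libraries, with a log2 fold change of 1.78 (SE 0.18). Traf4 had one of 1.41 (SE 0.17) and Traf6, an adaptor also used by interleukin-1 family receptors, one of 0.59 (SE 0.17), which missed the threshold without either naive library and without Th17 library 1 (adjusted p 0.12 to 0.15 in edgeR's test). Traf5 had 9.51 and 7.58 CPM in Th17 libraries and 81.5 and 84.8 CPM in naive libraries, a log2 fold change of -3.27 (SE 0.18). Traf2 (-1.12, SE 0.17) and Traf3 (-0.78, SE 0.19), which together restrain the alternative NF-κB pathway, were also called lower.

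Among 10 death signalling genes, 2 were higher, 5 lower and 3 not called, beside 34.3% higher and 30.7% lower over all tested genes. Mlkl, the executor of necroptosis, had 39.8 and 31.7 CPM in Th17 libraries and 0.637 and 0.0704 CPM in naive libraries, a log2 fold change of 6.52 (SE 0.65). The naive libraries held 12 and 1 reads of Mlkl, and the log2 fold change was 8.82 without naive library 1 and 5.72 without naive library 2. The adaptors Fadd (-1.16, SE 0.19) and Tradd (-0.997, SE 0.15) were called lower.

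Among 17 genes of the NF-κB arm, 2 were higher, 10 lower and 5 not called, with a median log2 fold change of -0.47. The shares over all tested genes were again 34.3% higher and 30.7% lower. The largest falls were in Ikbkb, which encodes the IKKβ kinase (-2.06, SE 0.17), Map3k14, which encodes the NIK kinase (-1.61, SE 0.15), and Sharpin, a part of the linear ubiquitin ligase complex (-1.53, SE 0.17). Tnfaip3, which encodes the inhibitor A20, had 366 and 233 CPM in Th17 libraries and 111 and 110 CPM in naive libraries, a log2 fold change of 1.44 (SE 0.22), and it missed the threshold without either naive library (adjusted p 0.079 and 0.082 in edgeR's test). Map3k7, which encodes the TAK1 kinase, had one of 0.43 (SE 0.15) and missed the threshold in 5 alternatives. The proteases that shed TNF family proteins, Adam10 (-0.03, SE 0.19) and Adam17 (0.18, SE 0.15), were not called.

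A-to-I editing is the conversion of adenosine to inosine by ADAR enzymes, which reads as guanosine in a cDNA. Tnfrsf9 held 2 sites in the table of Th17 and naive cells, at chromosome 4 positions 150945400 and 150945407, which are bases 530 and 537 of the 1232-base 3′ UTR. The site at 150945400 was edited in 8.05% of reads in Th17 library 1 and in 5.92% in library 2, and the site at 150945407 in 3.56% and 4.75%. The listed coverage belongs to library 2, with 20 edited of 338 reads (95% Clopper-Pearson interval 3.65 to 8.99%) and 17 of 358 reads (2.79 to 7.49%). Both sites were listed for Th17 cells and neither for naive cells, whose libraries had 232 and 208 reads on the whole gene, and the table gives no level for naive cells. The mean over both sites was 5.81% and 5.33% in Th17 libraries, 5.57% ± 0.335 (SD, n = 2).

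Set against the 399 sites listed for Th17 cells, whose median level was 27.8% and median coverage 16 reads, the Tnfrsf9 sites were low in level and deep in coverage. Only 20 sites had a level at or below that at 150945400 (mean 6.99%) and 3 at or below that at 150945407 (4.15%), counting the site itself, and 5 and 4 sites had as much coverage. The table lists only confident calls, and the part of coverage in these ranks was not tested.

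In the other table, the site at 150945400 had 11.2% and 9.03% in DDX5-deficient libraries and 8.65% and 8.64% in wild-type libraries. Both DDX5-deficient libraries were above both wild-type libraries. The mean was 10.1% ± 1.52 in DDX5-deficient and 8.64% ± 0.01 in wild-type cells (SD, n = 2 each), a difference of 1.47 percentage points (SE 1.08). It was 0.389 points without DDX5-deficient library 1 and 2.54 points without DDX5-deficient library 2. The exact two-sided permutation test over libraries gave p = 0.333, the smallest p that 2 against 2 can give. Of 328 sites with a level in every library, 64 (19.5%) had every DDX5-deficient library above every wild-type library. The median difference over these sites was -1.02 points. All 355 listed sites had a level in both wild-type libraries, but only 341 and 334 had one in the DDX5-deficient libraries. The list is thus fuller for wild-type cells, and the part of this in the share and the median was not tested. In wild-type library 2, 19 of 220 reads were edited, a 95% Clopper-Pearson interval of 5.28 to 13.2%, which covers the counting error of that library only.

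**Figure D5:**
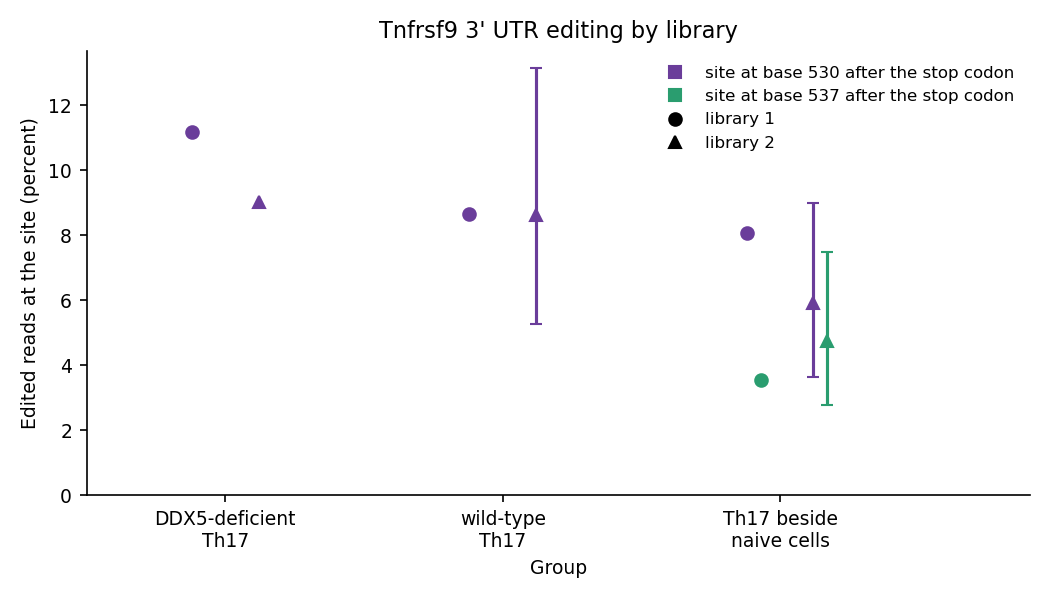
Share of edited reads at the Tnfrsf9 sites in each library, in percent, in DDX5-deficient and wild-type Th17 cells and in the Th17 cells set beside naive cells, 1 point a library, with 95% Clopper-Pearson intervals where the coverage is known. All values lie between 3.56% and 11.2%, and naive cells have no listed level.

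Tnfrsf1b had a site at chromosome 4 position 145213740, base 2047 of its 2324-base 3′ UTR, listed for naive cells and not for Th17 cells. No level is given for Th17 cells, whose libraries had 2014 and 922 reads on the whole gene, and a missing level is not a level of 0. The site was edited in 12.8% of reads in naive library 1 and 45.7% in naive library 2, with unknown depth. The libraries differed widely, and 428 of 571 sites listed for naive cells had a mean level at or below the site's 29.3%. A thymidine in the reference DNA stood just before the edited adenosine at each of the 3 sites in members, and at 41.85% of the sites that lie in an annotated transcript in the Th17 and naive table and 44.78% of those in the other table.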

How the data were processed

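The authors' expression table of Th17 and naive cells holds raw read counts, in columns marked original in the file headers, made with STAR 2.6.1a, featureCounts and the mm10 build per the submitters' processing notes. It also holds a normalized signal deposited by the authors, which was not tested here, and their DESeq2 1.18.1 log2 fold change, Wald score and p-value, deposited by the authors. The editing tables, deposited by the authors from SAILOR with a confidence of 0.99 per the labels, hold the edited fraction per site, printed here as percent, a score and a coverage count. The coverage count was assigned to library 2 of the Th17 and wild-type cells because level times coverage was whole within 0.01 at every site there.

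Tests of expression used edgeR 4.0.16 under R 4.3.3: filterByExpr, TMM, robust quasi-likelihood fits on group alone, Benjamini-Hochberg adjustment over 11989 genes, called at an adjusted p under 0.05, with alternatives including DESeq2 1.42.0. A fold against 0 reads is set against 3 reads per library, and 1 to 3 reads get an exact conditional binomial ratio interval. Such counting intervals, and those of edited shares, are at 95% and cover counting error only. They can be too narrow, because PCR reads are not independent molecules. The 95% intervals of fold changes from the fit also take in the spread between libraries. Total reads were 11768994 to 26624436 per library. The members and lists were chosen with earlier results of these data known. Named were all 10 members; in each list the 3 called genes with the largest rise and the 3 with the largest fall, and every gene of a list with 5 or fewer tested; and the 3 genes closest to Tnfrsf9. Some genes that this rule or the marker lists hold are not reported here. Gene positions came from GENCODE M21. Python 3.11.15 and scipy 1.17.1 gave the site statistics.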

Additional observations from a re-analysis of the deposited data

How the results depend on the processing

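For expression, 9 alternatives were run: RLE scaling, no filter, a mean count of at least 10, a replicate block, DESeq2 and leaving out each of the 4 libraries. Of 90 values for the members, 86 kept direction and call, 3 lost the call and 1 gained it; of 297 for the other named genes, 275 kept both, 17 lost the call and 5 changed sign. Without one library, the count of members called lower was 1 to 2, of other receptors and ligands called higher 7 to 15, of signalling genes called higher 4 to 6, and of all genes called higher 2380 to 4847, the low ends coming without a naive library, where the lone sample is assumed to vary like the others. Fasl ranged from -0.33 to 0.46 and Adam10 from -0.32 to 0.18 in log2 fold change, and Adam10 was 0.0023 with RLE and 0.0025 with DESeq2; neither was called, and the cause was not tested. The replicate numbers were not taken to pair the libraries. Same-numbered deviations had r = -0.0814 and the other pairing r = 0.0814. With 2 libraries a group these mirror each other by construction, so r cannot decide whether libraries are paired. The labels' descriptions give library 2 of Th17 and of naive cells the same number, whose meaning is not stated, and give libraries 1 different ones. With the replicate block 6 members were called higher. For editing, the DDX5-deficient minus wild-type difference was 0.389 to 2.54 points when a library was left out, and the Th17 mean was 5.33 to 5.81%. The replicate block gave 1.47 points, which equals the main difference by construction and is no check. In the Th17 and naive table, restricting to sites listed in every library of both groups left no Tnfrsf9 site. Read counts of 0 to 2 in naive cells limit the size given for Tnfrsf8, Eda2r and Cd70, and 2 libraries a group limit the test of the editing difference.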

Other observations

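Among genes outside the 10, the editing table listed 2 sites in Tnfrsf14 for Th17 cells, at chromosome 4 positions 154921986 (13.3% and 28.6%) and 154922011 (14.3% and 40.0%), with a listed coverage of 7 and 5 reads. It listed a site in Traf6 at chromosome 2 position 101697842 (12.5% and 31.2%) and a site in Map3k7 at chromosome 4 position 32022582 (29.4% and 40.0%) for naive cells, with unknown depth. All lie in annotated 3′ UTRs.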
